A study of Mus musculus with 27 samples.

Results

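The libraries compared here hold RNA of macrophages sorted from the dura, the outer membrane around the brain, of mice that had received T cells unable to make interferon-gamma (IFN-gamma) or total T cells. The 2 libraries of the IFN-gamma-deficient group and the 5 of the total T-cell group were taken by their labels, 7 of the 27 libraries of the series. All hosts were B6 mice with a Rag1 knockout, and so lacked T and B cells, and were 16 to 19 weeks old. The hosts of both groups had been reconstituted 6.5 weeks earlier, with IFNg ko T cells or with total B6 T cells. Both libraries of the first group are female (F1, F2), and the second group has 4 female libraries (F1 to F4) and 1 male library (M1). Per the labels the IFNg knockout was a property of the donor T cells, while the sequenced cells came from the host, and Rag1-deficient hosts keep natural killer cells and other innate cells that can make IFN-gamma. After perfusion the dura was digested and macrophages were sorted by flow cytometry, with markers not given in the sources used here. Libraries from mice without T cells (6) and from mice given T cells that lack interleukin-17A and F (2, the IL-17A/F group) serve as reference points, with the same strain, genotype and age range.

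IFN-gamma is a cytokine of activated T cells and natural killer cells. On macrophages it binds the receptor chains Ifngr1 and Ifngr2, which signal through the kinases Jak1 and Jak2. Promoters of responsive genes often hold gamma-activated sites (GAS), and genes induced this way encode GTPases that attack vacuoles of microbes, chemokines that attract T cells, and the machinery that presents peptides on MHC molecules. Factors of the IRF family bind a second element, the interferon-stimulated response element (ISRE).

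Promoter stretches are printed for the GTPase families, since these families are the textbook targets of IFN-gamma. They are also printed for 3 other genes with a GAS match, taken only from genes that tested lower in the IFN-gamma-deficient group. These 3 are not all that met this condition. Ccl17 and Psmb8 are among those that met it and are not printed. The 250 bases before each RefSeq transcription start (GRCm38.p6) were searched on both strands for the GAS letters TTCNNNGAA and for the ISRE core, which is GAAA, 2 bases of any kind and GAAA again. Of all 27025 promoters, 8.13% held a GAS match and 3.463% an ISRE core match. Among the immunity-related GTPases, 7 promoters were available, of which 4 held a GAS match and 5 an ISRE core match. Among the guanylate-binding proteins 4 were available, of which 1 held a GAS match and 4 an ISRE core match. Of these families, Gbp2, Gbp3 and Irgm1 tested lower and held an ISRE core match but no GAS match. Their stretches are not printed because they meet an annotated exon. In the MHC class I list 2 of 17 promoters held a GAS match (11.8%), and in the MHC class II list 1 of 11 (9.09%). The counts were 2 of 13 for other IFN-gamma-induced effectors and 1 of 4 for T-cell-attracting chemokines. In the lines that follow, read along the gene's strand, capitals mark the matched letters, and on some lines the match lies on the other strand. A match is a description of the letters, not a shown binding site.
Gbp2b (chr3:142594680-142594749, + strand): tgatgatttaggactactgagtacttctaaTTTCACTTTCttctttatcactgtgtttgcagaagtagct
Gbp7 (chr3:142530200-142530322, + strand): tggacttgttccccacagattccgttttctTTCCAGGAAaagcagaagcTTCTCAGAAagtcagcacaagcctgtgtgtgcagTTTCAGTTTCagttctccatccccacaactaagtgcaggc
Igtp (chr11:58199481-58199555, + strand): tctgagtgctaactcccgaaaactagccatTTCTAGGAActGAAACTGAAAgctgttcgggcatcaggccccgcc
Irgm2 (chr11:58214872-58214952, + strand): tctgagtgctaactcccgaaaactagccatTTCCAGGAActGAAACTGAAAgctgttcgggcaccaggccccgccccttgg
Tgtp1 (chr11:48992284-48992364, - strand): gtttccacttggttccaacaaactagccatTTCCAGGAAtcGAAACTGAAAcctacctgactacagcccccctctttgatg
Tgtp2 (chr11:49064243-49064323, - strand): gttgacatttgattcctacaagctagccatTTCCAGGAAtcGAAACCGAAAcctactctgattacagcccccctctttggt
Serpina3g (chr12:104236084-104236146, + strand): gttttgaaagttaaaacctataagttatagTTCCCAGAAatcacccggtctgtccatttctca
Irf8 (chr8:120736157-120736243, + strand): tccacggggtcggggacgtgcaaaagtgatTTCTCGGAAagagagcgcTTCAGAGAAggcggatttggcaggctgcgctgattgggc
Fcgr1 (chr3:96294040-96294108, - strand): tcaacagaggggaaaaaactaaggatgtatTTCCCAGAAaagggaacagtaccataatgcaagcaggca

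In Igtp, Irgm2, Tgtp1 and Tgtp2 a GAS match and an ISRE core match stand side by side. Of these 4 genes on chromosome 11, Igtp and Tgtp1 were called lower in the IFN-gamma-deficient group, and Irgm2 and Tgtp2 did not pass the test. Irf8, Serpina3g and Fcgr1 were picked from genes called lower, so their calls say nothing about the matches.

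The libraries of the 2 groups are not of one kind, which bears on every comparison with the total T-cell group. The summed level of ribosomal protein genes was 8948 and 9009 CPM (counts scaled to the same library total) in the IFN-gamma-deficient libraries. It was 33623, 32665, 15023, 16228 and 30314 CPM in total T-cell F1, F2, F3, F4 and M1. Of the 27 libraries, 7 lay under 10000 CPM, among them both IL-17A/F libraries and no total T-cell library. Library type and donor genotype therefore cannot be told apart between these groups. The same limit holds against mice without T cells, whose libraries lay at 13272 to 31463 CPM in that sum. Fibroblast markers summed to 3874 and 4637 CPM in the IFN-gamma-deficient libraries, against 294 to 476 CPM in the total T-cell libraries and 2750 to 3874 CPM in the IL-17A/F libraries. IFN-gamma-deficient F1 was the shallowest library of the series, with 6902602 counts, while F2 had 10723879 and the total T-cell libraries had 10300692 to 19966749. In such bulk libraries fewer cells of a type and less RNA per cell cannot be told apart.

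**Figure D1:**
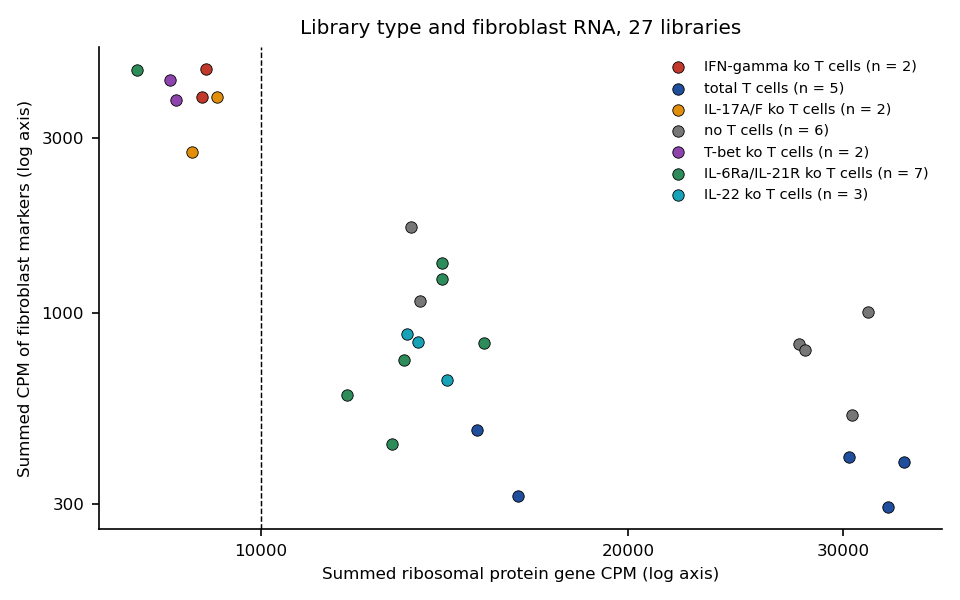
Summed CPM of fibroblast markers (vertical log axis) against summed CPM of ribosomal protein genes (horizontal log axis) in the 27 libraries, 1 point a library, coloured by donor T cells; the dashed line marks 10000 CPM. Both IFN-gamma-deficient libraries lie left of the line at 3874 and 4637 CPM on the vertical axis, and all 5 total T-cell libraries lie right of it at 294 to 476 CPM.

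The transferred cells left little trace of their own. Ifng itself had 0 counts in both IFN-gamma-deficient libraries and 61, 0, 0, 0 and 7 counts in total T-cell F1, F2, F3, F4 and M1. Of 14 T-cell markers, 10 had 0 counts in both IFN-gamma-deficient libraries, Cd3e, Trac and Cd8a among them. Cd3e, a chain of the T-cell receptor complex, had 14 and 10 counts in total T-cell F1 and M1 and 0 in the other 3. The counts thus hold no check of the knockout, which the donor T cells carry.

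Over 12661 tested genes, 4661 (36.8%) differed between the groups at an adjusted p under 0.05 (edgeR's quasi-likelihood test, Benjamini-Hochberg adjustment), 2197 (17.4%) higher and 2464 (19.5%) lower in the IFN-gamma-deficient group. Such genes are named "called" hereafter, and counts over a gene list are to be read against these shares. The median log2 fold change over all tested genes was -0.05. Without IFN-gamma-deficient F1, 2047 genes were called, and without F2, 4261. With library type (under 10000 CPM or not) as a term in the model, 35 genes were past the threshold (0.276%), 31 lower (0.245%) and 4 higher (0.0316%), and 23 of them were among the 4661. That term can be estimated only within a group that holds both types. The IL6Ra ko/IL21R ko group is the one such group, through 1 library at 7914 CPM against 6 at 11757 to 15229 CPM. Every value and every lost call given below with library type as a term therefore rests on that 1 library, without which the term cannot be estimated. A term for 3 sets of libraries by their ribosomal protein sum, which takes its lowest set from the same library, gave 48 (0.379%), 35 lower (0.276%) and 13 higher (0.103%). Against total T-cell F3 and F4 alone, the 2 libraries nearest in that sum, 2459 genes were called (19.4%), 1320 lower (10.4%) and 1139 higher (9.0%).

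Against the IL-17A/F libraries, which share the library type and the high fibroblast sum, 2 genes were called (0.0158%), and 776 (6.13%) had an unadjusted p under 0.05, 534 of them (4.22%) lower. Against mice without T cells 1729 genes were called (13.7%), and total T cells against no T cells gave 2665 (21.0%). These comparisons share libraries with the main one, so their values stand beside it as descriptions and not as separate evidence.

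Both genes called against the IL-17A/F group were lower in the IFN-gamma-deficient libraries. Fcgr4 (chr1:171018920-171029761, + strand, GRCm38) encodes an activating Fc receptor that binds IgG2 antibodies. It stood at 78.4 and 89.8 CPM in IFN-gamma-deficient F1 and F2, at 565, 578, 354, 361 and 525 CPM in total T-cell F1, F2, F3, F4 and M1, and at 253 and 398 CPM in the IL-17A/F libraries. Both IFN-gamma-deficient libraries lay below every library of the other 2 groups and below the 111 to 162 CPM of mice without T cells. The log2 fold change was -2.53 ± 0.29 (SE) against total T cells (adjusted p = 3.66e-06, edgeR) and -1.95 against IL-17A/F-deficient T cells (adjusted p = 0.017, edgeR). It kept its call with library type as a term, at -2.09 ± 0.40 (adjusted p = 0.0202, edgeR). The second gene, Nmrk1, which encodes a kinase of the NAD salvage route, was chosen for mention after its value was seen and is scarce. Its 3 reads in the IFN-gamma-deficient libraries put it 18.8-fold lower than in the total T-cell group (95% exact interval 6.34 to 91.9, counting error only), with an adjusted p of 0.033 against IL-17A/F (edgeR).

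Receptor and signalling genes of the IFN-gamma pathway were lower in part. Of 16 tested, 7 were called lower (among them Ifngr1, Ifngr2, Irf8, Socs1, Ptpn2, Ptpn6), against 19.5% of all tested genes. Jak1 and Socs3, 2 of the 16, were called higher, against 17.4% of all tested genes. The list's median log2 fold change was -0.53. Socs1, a feedback inhibitor of the Jak kinases that IFN-gamma induces, was lower by a log2 fold change of -2.17 ± 0.50, at 12.6 and 14.8 CPM against 33.0 to 101 CPM. Socs3, a related inhibitor better known in interleukin-6 signalling, was higher, at 2356 and 2329 CPM against 1045 to 1531 CPM (0.95 ± 0.16, adjusted p = 0.000161, edgeR). The receptor chains differed little: Ifngr1 had a log2 fold change of -0.39 ± 0.13 and Ifngr2 of -0.67 ± 0.18. Jak1 stood at 0.45 ± 0.13, and at -0.10 with library type as a term. Jak2 did not pass (-0.71 ± 0.34, adjusted p = 0.102, edgeR). Without IFN-gamma-deficient F1, 3 of the 9 remained called, and the calls of Ifngr1, Ifngr2 and Jak1 were lost, with adjusted p of 0.26, 0.091 and 0.12 (edgeR). Without total T-cell F3, Ifngr1 was at an adjusted p of 0.0606 and Jak2 at 0.0297 (edgeR).

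Irf1, a transcription factor that IFN-gamma induces, was at 623 and 557 CPM in the IFN-gamma-deficient libraries and at 714, 535, 315, 527 and 710 CPM in the total T-cell libraries. The groups overlapped, and the log2 fold change was 0.12 ± 0.31 (adjusted p = 0.792, edgeR); it was -0.02 without total T-cell F3.

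Guanylate-binding proteins, GTPases that coat and disrupt the vacuoles of intracellular microbes, were lower as a family. Of 7 tested, 6 were called lower and none higher; 5 of 7 lay lower with no overlap between the groups, against 23% of all tested genes. Their median change on the log2 scale was -2.07 here, -1.57 against total T-cell F3 and F4, -0.89 with library type as a term and -1.30 against IL-17A/F. Without IFN-gamma-deficient F1, and likewise without F2, 4 of the 6 remained called. Gbp2 (chr3:142620602-142638008, + strand) was at 106 and 83.0 CPM in the IFN-gamma-deficient libraries and at 1680, 466, 282, 449 and 1255 CPM in total T-cell F1, F2, F3, F4 and M1. Its groups were far apart, with F1 and M1 highest, and its log2 fold change was -3.14 ± 0.60 (adjusted p = 0.000425, edgeR). Gbp4 (chr5:105115767-105139586, - strand) was at 3.57 and 3.20 CPM against 144, 61.5, 34.0, 39.5 and 158 CPM, and at 29.7 and 45.7 CPM in the IL-17A/F libraries. Its log2 fold change was -4.62 ± 0.74 (adjusted p = 7.68e-05, edgeR), and mice without T cells ranged from 3.78 to 16.2 CPM. Gbp8 had a log2 fold change of -2.12 ± 0.46. Gbp7, with 2 GAS matches and an ISRE core match in the stretch printed above, did not pass (-0.24, adjusted p = 0.438, edgeR); it is the 1 member not called.

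Immunity-related GTPases, which act on the same vacuoles, had 5 of 8 tested members called lower and 1 higher. Their median was -1.24 (log2 fold change), and 5 of 8 did not overlap. Igtp (chr11:58199556-58207591, + strand) was at 42.1 and 56.5 CPM in the IFN-gamma-deficient libraries and at 226, 111, 80.4, 118 and 248 CPM in the total T-cell libraries (-1.60 ± 0.35, adjusted p = 0.00132, edgeR). The lowest total T-cell library, F3, still lay above both IFN-gamma-deficient ones. Ifi47 was lower by a log2 fold change of -1.43 ± 0.32. Tgtp1, a near copy of Tgtp2 for which reads may have been shared, was scarce, at 0 and 0.444 CPM against 0.939 to 12.9 CPM. Without IFN-gamma-deficient F1, 3 of the 6 remained called, and Tgtp1 lost its call (adjusted p = 0.19, edgeR). Without total T-cell F1, Tgtp1 was at an adjusted p of 0.0508 (edgeR).

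**Figure D2:**
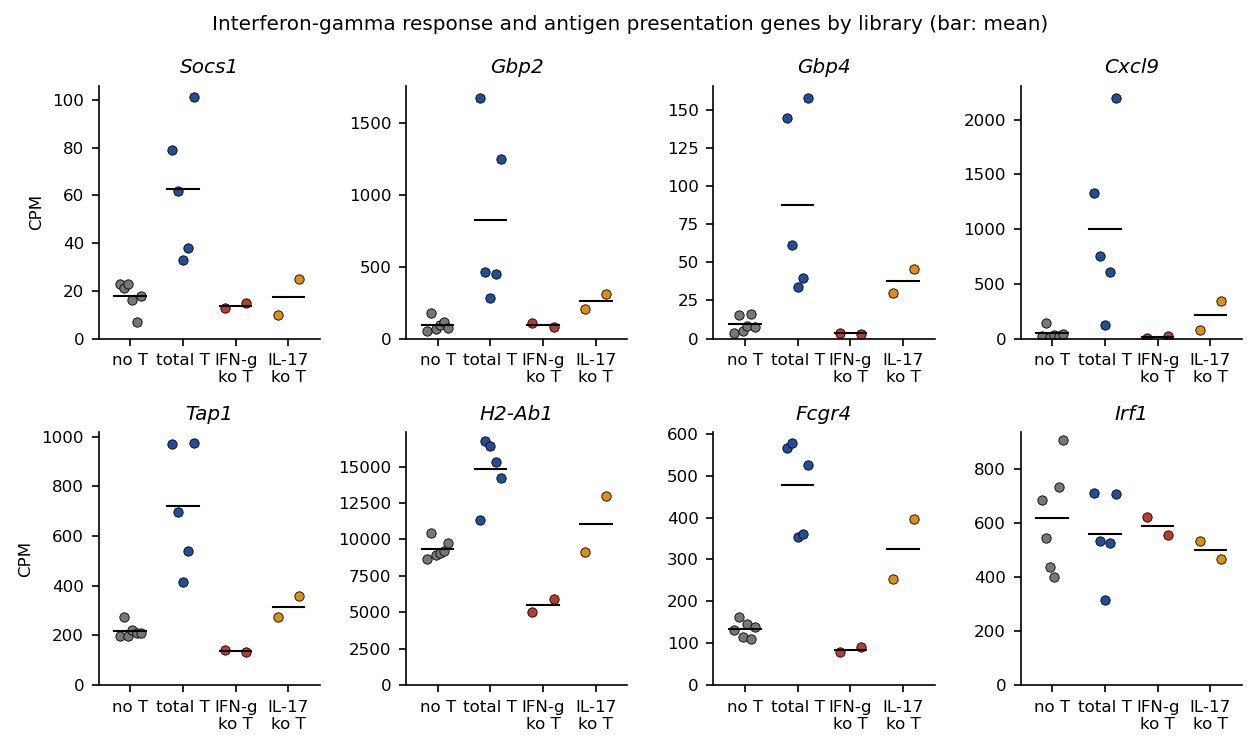
CPM (vertical linear axis from 0) of 8 genes in the libraries of 4 groups, 1 point a library, with a bar at the group mean. Socs1, Gbp2, Gbp4, Cxcl9, Tap1, H2-Ab1 and Fcgr4 lie lower in both IFN-gamma-deficient libraries than in all 5 total T-cell libraries, while Irf1, at 623 and 557 CPM, lies within their range.

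Other IFN-gamma-induced effectors had 13 of 20 tested members called lower and 1, Tnfsf10, higher. Their median was -2.06 (log2 fold change). It was -1.29 against F3 and F4 and -0.91 with library type as a term. Acod1, which makes the antimicrobial metabolite itaconate, was at 10.3 and 3.37 CPM in the IFN-gamma-deficient libraries and at 447, 138, 75.8, 105 and 586 CPM in total T-cell F1, F2, F3, F4 and M1. Its groups did not overlap and its log2 fold change was -5.34 ± 1.24 (adjusted p = 0.00192, edgeR). Mefv, which encodes the inflammasome sensor pyrin, had a log2 fold change of -4.13 ± 0.71 (adjusted p = 0.000162, edgeR). Serpina3g, a protease inhibitor, was at 16.1 and 16.1 CPM against 51.5 to 313 CPM. Cd274, the checkpoint ligand PD-L1, was at 46.2 and 42.6 CPM against 361, 186, 79.3, 131 and 511 CPM (-2.45 ± 0.60, adjusted p = 0.0028, edgeR). Against F3 and F4 alone the Cd274 change was -1.24 (adjusted p = 0.086, edgeR).

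In that effector list 6 members were not called: Gch1, Il12b, Irf1, Nos2, Ciita and Batf2. Nos2, the inducible nitric oxide synthase, stood at 10.9 and 0 CPM in the IFN-gamma-deficient libraries and at 304, 7.52, 0.939, 5.33 and 141 CPM in the total T-cell libraries. The libraries of each group were spread so widely that its log2 fold change of -4.08 ± 2.05 had an adjusted p of 0.121 (edgeR). Ciita, the master switch of MHC class II genes, had a log2 fold change of -0.92 ± 0.37 (adjusted p = 0.0523, edgeR), and an adjusted p of 0.0494 without total T-cell F3. Upp1, an enzyme that breaks down uridine, was called lower (-6.06 ± 1.96) but stood at 0.37 with library type as a term, and lost its call without total T-cell F1 (adjusted p = 0.0534, edgeR). Of the 14 called members, 9 remained called without IFN-gamma-deficient F1 and 11 without F2.

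Chemokines that draw T cells were the list with the lowest median among those printed for the IFN-gamma response. All 7 tested members were called lower. Their median was -4.90 (log2 fold change), and 6 of 7 did not overlap. Against total T-cell F3 and F4 alone 3 of 7 were called and the median was -3.25; it was -3.26 with library type as a term and -2.37 with the library sets, with 0 called in both, and -0.73 against IL-17A/F. Cxcl9 (chr5:92321347-92328079, - strand), a ligand of the chemokine receptor Cxcr3 on T cells, was at 2.47 and 22.5 CPM in the IFN-gamma-deficient libraries and at 1326, 752, 125, 613 and 2198 CPM in total T-cell F1, F2, F3, F4 and M1. The lowest total T-cell library, F3, was still above both. Its log2 fold change was -6.34 ± 1.26 (adjusted p = 0.00056, edgeR), and the IL-17A/F libraries stood between, at 79.3 and 345 CPM. Ccl5 was at 0.825 and 5.77 CPM against 43.1 to 593 CPM (-6.07 ± 1.41). Ccl17, with 3 reads in the IFN-gamma-deficient libraries, was 51.0-fold lower (95% exact interval 17.4 to 248). Without IFN-gamma-deficient F1, 1 of the 7 remained called, Cxcl9 (adjusted p = 0.023, edgeR), and 5 did without F2. Of 18 other chemokines none was called lower and 4 were called higher. With library type as a term none was higher and 2 were lower, Ccl9 (-2.03 on the log2 scale, adjusted p = 0.0149, edgeR) and Ccl6 (-1.89, adjusted p = 0.0402, edgeR), named after their values were seen; with the library sets 1 was higher and 2 lower. Setting apart the 5 members that followed library type or set left 1 of 13 called higher. Among the 4 called higher in the main comparison, Ccl24, which attracts eosinophils, was at 57.0 and 78.3 CPM against 5.37 to 33.0 CPM. Cxcl12, abundant in fibroblasts, was at 184 and 203 CPM against 25.9 to 39.9 CPM. Ccl24 kept its call without IFN-gamma-deficient F1 (adjusted p = 0.041, edgeR) but not without F2 (adjusted p = 0.072), and 2 of the 4 kept theirs in each case.

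Genes of MHC class I and of the peptide supply for it moved together. Of 21 tested, 20 were called lower and none higher. The list's median was -1.36 (log2 fold change), and 19 of 21 did not overlap. Without IFN-gamma-deficient F1, 17 of the 20 remained called. All 21 lay below 0 against the IL-17A/F group too, with a median of -0.84 and 17 at an unadjusted p under 0.05. Tap1 (chr17:34187553-34197225, + strand), a subunit of the transporter that carries peptides into the endoplasmic reticulum, was at 141 and 132 CPM in the IFN-gamma-deficient libraries. Total T-cell F1, F2, F3, F4 and M1 were at 973, 698, 415, 540 and 975 CPM, and mice without T cells at 196 to 276 CPM. The IFN-gamma-deficient libraries lay below all of these, with a log2 fold change of -2.41 ± 0.31 (adjusted p = 1.21e-05, edgeR). It was -1.56 ± 0.40 with library type as a term (adjusted p = 0.0915, edgeR).

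Psmb8, a catalytic subunit of the immunoproteasome, stood at 109 and 146 CPM against 328 to 787 CPM (-2.07 ± 0.28). Psme2, an activator of the proteasome with near-identical copies in the genome, had a log2 fold change of -3.28 ± 0.60 and is uncertain for that reason. Of the class I heavy chains, H2-K1 was at 1394 and 1713 CPM against 3395 to 4749 CPM. B2m, their light chain, was at 2569 and 2815 CPM against 4777 to 6291 CPM (-0.96 ± 0.18, adjusted p = 0.000351, edgeR). The summed list was 7894 and 9054 CPM against 16494 to 23272 CPM.

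MHC class II genes, which display peptides to CD4 T cells, had 9 of 15 tested members called lower and none higher, with a median of -1.38 and 11 of 15 not overlapping. H2-Ab1 (chr17:34257689-34269419, + strand), a chain of the class II dimer, was at 5035 and 5902 CPM in the IFN-gamma-deficient libraries. It was at 11359, 16751, 16434, 15280 and 14246 CPM in total T-cell F1, F2, F3, F4 and M1, and at 9163 and 12989 CPM in the IL-17A/F libraries. The groups were well apart, with a log2 fold change of -1.46 ± 0.31 (adjusted p = 0.00112, edgeR). H2-DMa, part of the peptide editor of the class II route, was at 333 and 434 CPM against 1035 to 1145 CPM (-1.56 ± 0.28, adjusted p = 0.000207, edgeR). H2-Eb2 had 3 reads in the IFN-gamma-deficient libraries and was 62.5-fold lower (95% exact interval 21.3 to 304). The list's median was -1.38 against F3 and F4 too, but -0.06 with library type as a term and 0.08 with the 3 library sets as a term, and H2-Ab1 was then at 0.13 and 0.11. Against the IL-17A/F libraries 14 of 15 lay below 0, with a median of -0.87. Without IFN-gamma-deficient F1, 5 of the 9 remained called.

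Fc-gamma receptor genes, by which macrophages sense antibody, had 3 of 6 members called lower: Fcgr4, Fcgr1 and Fcer1g, the shared signalling chain. Fcer1g was at 500 and 607 CPM against 1021 to 1080 CPM (-0.95 ± 0.17), and Fcgr1 at 330 and 371 CPM against 463 to 631 CPM (-0.61 ± 0.13). All 3 remained called without either IFN-gamma-deficient library. Since Rag1-deficient hosts make no antibody of their own, Igkc, the kappa light chain of antibodies, is given here as well. It had 0 counts in both IFN-gamma-deficient libraries, at least 64.1-fold lower than the total T-cell mean (against 3 counts over the group), and was at 0.272, 45.8, 0.417, 1.10 and 4.30 CPM in the total T-cell libraries. That mean rests on F2, and without F2 the call was lost (adjusted p = 0.076, edgeR), as it was without M1 (adjusted p = 0.0518, edgeR).

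Costimulation and checkpoint genes had 4 of 12 tested members called lower and none higher, led by Cd274, Cd40 and Tnfrsf14. Cd40, which receives the help signal of CD4 T cells, was at 38.2 and 41.6 CPM against 90.2 to 224 CPM (-1.95 ± 0.38, adjusted p = 0.000499, edgeR). Tnfrsf14 had a log2 fold change of -1.48 ± 0.48, lost its call without IFN-gamma-deficient F1 (adjusted p = 0.24, edgeR) and had an adjusted p of 0.0536 without total T-cell F1.

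The type I interferon list, which shares part of its target genes with the IFN-gamma response, had 6 of 22 tested members called lower (Isg15, Oas3, Oas1a, Irf7, Xaf1, Rtp4) and 1 higher (Oas2), with a median of -0.43. Irf7, which amplifies that response, was at 97.7 and 110 CPM against 160 to 542 CPM (-1.47 ± 0.36). Oas1a had a log2 fold change of -1.34 ± 0.24, and Oas2, another sensor of double-stranded RNA, one of 1.11 ± 0.22. Without IFN-gamma-deficient F1, 3 of the 7 remained called, and the adjusted p of Irf7 was 0.059 (edgeR).

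Inflammatory genes were lower in part. Of 11 interleukin-1 and inflammasome genes, 8 were called lower and none higher, with a median of -1.30 (-0.34 against IL-17A/F). Il1b, an early inflammatory cytokine, was at 581 and 786 CPM against 2876, 1722, 2212, 1417 and 2099 CPM, with no overlap and a log2 fold change of -1.57 ± 0.49 (adjusted p = 0.0153, edgeR). Pycard, the inflammasome adaptor, had a log2 fold change of -1.72 ± 0.25 (adjusted p = 3.2e-05, edgeR). Il1r2, a decoy receptor of interleukin-1, had 2 reads in the IFN-gamma-deficient libraries and was 215-fold lower (95% exact interval 59.5 to 1778). Without IFN-gamma-deficient F1, 5 of the 8 remained called, and Il1b was at an adjusted p of 0.16 (edgeR). Il18 rests on the same library, with 0 CPM in F1, 9.59 CPM in F2 and 10.6 to 26.4 CPM in the total T-cell libraries; without F1 its adjusted p was 0.11 (edgeR).

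Of 17 interleukin-17 and NF-kB target genes, 7 were called lower and none higher (median -0.66, and 0.15 against IL-17A/F). Ptgs2, the inducible enzyme of prostaglandin synthesis, was at 467 and 473 CPM against 893 to 2200 CPM (-1.64 ± 0.45), and Tnfaip2 had a log2 fold change of -1.98 ± 0.49. Lcn2, an iron-binding defence protein, had 2 reads and was 150-fold lower (95% exact interval 41.5 to 1241). Without IFN-gamma-deficient F1, 2 of the 7 remained called, and Ptgs2 was at an adjusted p of 0.074 (edgeR); without F2, 4 did.

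Enzymes of arginine metabolism had 4 of 10 tested members called lower, with a median of -0.56 (0.13 against IL-17A/F). Ass1, which rebuilds arginine from citrulline, was at 2.89 and 1.42 CPM against 204, 62.4, 10.2, 33.4 and 201 CPM (-5.55 ± 1.33, adjusted p = 0.00251, edgeR). Arg2 had a log2 fold change of -4.41 ± 1.48 and Slc7a1, an arginine importer, one of -1.25 ± 0.37. Without IFN-gamma-deficient F1, 1 of the 4 remained called, with adjusted p of 0.14 for Arg2 and 0.24 for Slc7a1 (edgeR). Arg2 was at 0.11 without IFN-gamma-deficient F2 and at 0.0556 without total T-cell F1. Arg1 could not be placed, at 71.1 and 0 CPM against 93.3, 0.451, 0, 2.96 and 72.1 CPM. It had an adjusted p of 0.808 (edgeR), and its log2 fold change went from 0.59 to -11.18 without IFN-gamma-deficient F1. Of 7 enzymes of itaconate, kynurenine and uridine metabolism, 6 were called lower, with a median of -2.09 (0.06 against IL-17A/F). Of these 6, 3 remained without IFN-gamma-deficient F1 and 2 without F2. Kynu was called by the narrowest margin (-2.90 ± 1.13, adjusted p = 0.0462, edgeR), and leaving out total T-cell F1, F2 or M1 ended its call at adjusted p of 0.133, 0.0513 and 0.0684.

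Monocyte-derived cell genes were lower and border macrophage genes higher. Monocytes enter the dura from blood and skull marrow and there become macrophages, while border macrophages are long-lived residents. Of 19 tested monocyte-derived genes 15 were called lower and 1, Ace, higher, with a median of -3.12, and 17 of 19 did not overlap in the lower direction. Fn1, Ccr1 and Vcan were not called. The summed list was 777 and 779 CPM in the IFN-gamma-deficient libraries and 3114 to 12384 CPM in the total T-cell libraries. It was 1111 and 1114 CPM in the IL-17A/F libraries and 1183 to 2106 CPM in mice without T cells. Against IL-17A/F the list's median was -0.68.

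Plac8 (chr5:100553725-100572245, - strand), abundant in blood monocytes, was at 9.62 and 3.02 CPM against 1894, 395, 173, 292 and 944 CPM. The groups were far apart, yet its log2 fold change of -6.92 ± 1.78 (adjusted p = 0.00422, edgeR) passed by little without IFN-gamma-deficient F1 (adjusted p = 0.045) and missed without F2 (adjusted p = 0.0501). Ccr2 (chr9:124101950-124113557, + strand), the receptor by which monocytes leave the marrow, was at 222 and 213 CPM against 1801, 1194, 1323, 1011 and 1179 CPM, with no overlap (-2.62 ± 0.34, adjusted p = 1.28e-05, edgeR). The IL-17A/F libraries were near the IFN-gamma-deficient ones for Ccr2, at 271 and 321 CPM. Itgal (chr7:127296260-127335138, + strand), the integrin chain of LFA-1, was at 26.5 and 47.8 CPM against 448, 260, 106, 166 and 444 CPM, and did not overlap either (-2.89 ± 0.51). Ly6c2, the classical monocyte marker with near-identical neighbours, was at 0.275 and 2.31 CPM against 72.9 to 860 CPM, and was at an adjusted p of 0.055 without IFN-gamma-deficient F1 (edgeR). Chil3 was at 1.65 and 9.76 CPM against 72.6 to 2466 CPM, and lost its call without F1 and without F2 (adjusted p = 0.17 and 0.065, edgeR).

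Of these 19 genes, 8 also followed library type or library set outside this comparison. The other 11 had 10 called lower and none higher, with a median of -3.20. Against F3 and F4 alone 12 of 19 were called lower (median -2.79). With library type as a term all 19 lay below 0, with a median of -2.37, and Clec4e was called (-4.35 ± 0.90, adjusted p = 0.0369, edgeR). Clec4e, a receptor for microbial glycolipids, was at 22.8 and 11.4 CPM against 461, 175, 140, 95.3 and 368 CPM. Without IFN-gamma-deficient F1, 9 of the 16 remained called, and 13 did without F2.

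Border macrophage genes had 19 of 21 tested members called higher and none lower, with a median of 1.67. In the higher direction 18 of 21 did not overlap, against 21.5% of all tested genes. Timd4 and Ms4a7 were not called. Mrc1 (chr2:14229392-14332057, + strand), the mannose receptor CD206, was at 5343 and 5151 CPM in the IFN-gamma-deficient libraries and at 510, 1440, 2654, 2075 and 785 CPM in total T-cell F1, F2, F3, F4 and M1. Both lay above all total T-cell libraries, by a log2 fold change of 1.80 ± 0.34 (adjusted p = 0.000377, edgeR), and above the 2312 to 3512 CPM of mice without T cells. The IL-17A/F libraries were near them, at 4917 and 4354 CPM. Cd163 (chr6:124304656-124330527, + strand), the haemoglobin scavenger receptor, was at 2797 and 1471 CPM against 73.3, 275, 510, 488 and 135 CPM (2.85 ± 0.46, adjusted p = 8.38e-05, edgeR). In the IL-17A/F libraries Cd163 was at 1402 and 1129 CPM. For both genes total T-cell F3 and F4 were the highest of their group and F1 the lowest. Folr2 had a log2 fold change of 1.65 ± 0.42 and Cd209f, a lectin, one of 2.25 ± 0.49. Slc40a1, the iron exporter, was higher (2.16 ± 0.63), but was at an adjusted p of 0.099 without IFN-gamma-deficient F2 (edgeR).

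The median of the border list was 1.07 against F3 and F4, with 10 of 21 called, 1.57 with library type as a term, with all 21 above 0 and none called, and 0.30 against IL-17A/F. Without IFN-gamma-deficient F1, 16 of the 19 remained called, and 14 did without F2. Setting apart the 3 members that followed library type or set left 16 of 18 called higher, with a median of 1.66. The summed list was 50783 and 56708 CPM in the IFN-gamma-deficient libraries and 15225 to 35442 CPM in the total T-cell libraries. It was 49993 and 55211 CPM in the IL-17A/F libraries and 38836 to 48635 CPM in mice without T cells.

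**Figure D3:**
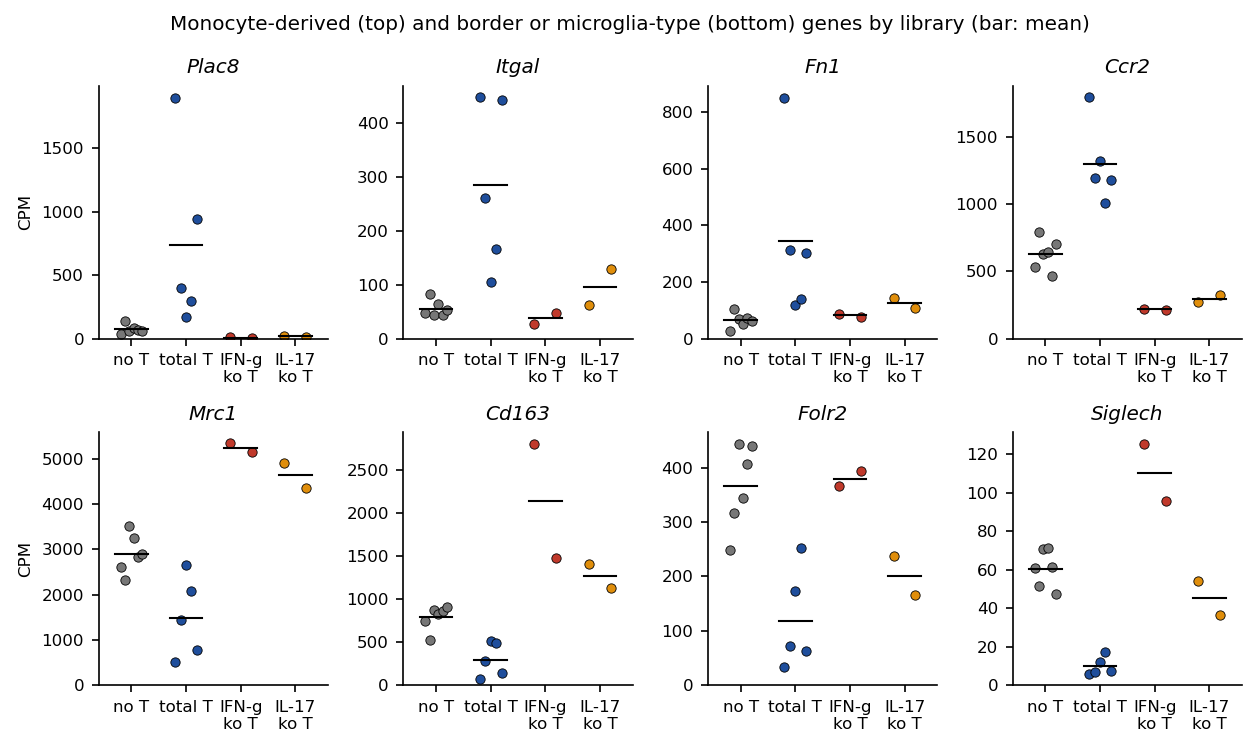
CPM (vertical linear axis from 0) of 4 monocyte-derived genes (top row) and 4 border or microglia-type genes (bottom row) in the libraries of 4 groups, 1 point a library, with a bar at the group mean. Plac8, Itgal, Fn1 and Ccr2 lie lower, and Mrc1, Cd163, Folr2 and Siglech higher, in both IFN-gamma-deficient libraries than in all 5 total T-cell libraries, with the Fn1 difference not past the test.

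Microglia signature genes had 4 of 11 called higher (P2ry12, Fcrls, Olfml3, Siglech) and none lower. Siglech (chr7:55768178-55778925, + strand), a sialic acid-binding lectin, was at 125 and 95.7 CPM in the IFN-gamma-deficient libraries and at 5.84, 6.62, 12.2, 17.4 and 7.09 CPM in the total T-cell libraries. It did not overlap and had a log2 fold change of 3.43 ± 0.44 (adjusted p = 1.08e-05, edgeR), and of 4.24 ± 0.87 with library type as a term (adjusted p = 0.0363, edgeR). Mice without T cells had 47.5 to 71.5 CPM and the IL-17A/F libraries 54.0 and 36.6 CPM.

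Of 11 tested macrophage-defining genes, 2 were called higher and 5 lower, with a median log2 fold change of -0.13. Csf1r, the receptor of the survival factor CSF1, was at 5305 and 5753 CPM against 2691 to 4336 CPM (0.68 ± 0.14, adjusted p = 0.000699, edgeR). Adgre1, which encodes F4/80, was at 1480 and 2173 CPM against 826 to 1892 CPM and was not called. Lyz2, lysozyme, was at 5814 and 7729 CPM against 12153 to 14870 CPM (-0.99 ± 0.17). Of the 35 genes past the threshold with library type as a term, 23 were called without it. The 12 others include Itgam, the integrin chain CD11b, at -0.13 without and -1.40 with the term, chosen for mention after its value was seen.

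Markers of some other leukocytes differed between the groups. Of 11 dendritic-cell markers 7 were called lower (Batf3, Dpp4, Flt3, Clec9a, Xcr1, Itgae, Ccr7) and none higher. Their sums were 130 and 143 CPM against 186 to 363 CPM. They were 114 and 124 CPM in the IL-17A/F libraries and 153 to 246 CPM in mice without T cells. Against the IL-17A/F group none of the 11 was called (median -0.40). Itgae had 0 counts in both IFN-gamma-deficient libraries, at least 21.9-fold lower. Neutrophil markers had 5 of 9 tested called lower, with sums of 52.1 and 99.6 CPM against 108 to 565 CPM. Those sums were 178 and 182 CPM in the IL-17A/F libraries. In mice without T cells they ran from 52.1 to 2664 CPM, a range that covers nearly all sums of both compared groups. Of the 12 neutrophil markers listed, 5 (Camp, Cxcr2, Ly6g, Mmp8 and Retnlg) were at 0 counts in both IFN-gamma-deficient libraries. In all total T-cell libraries 2 of the 12 were at 0 counts as well. Of the 5, only Camp and Mmp8 had enough counts over the series to be tested. The part of these cells in the lower inflammatory and MHC class II counts was not tested. Without IFN-gamma-deficient F1, 3 of the 7 dendritic-cell and 1 of the 5 neutrophil calls remained, and without F2, 4 and 2. Of the 4 T-cell markers tested, Cd4 and Cd28 were called higher, and the T-cell marker sum was 175 and 181 CPM against 61.7 to 143 CPM; 1 of these 2 calls remained without IFN-gamma-deficient F1, without F2, and without total T-cell F1, F2 or M1 in turn. No marker of B cells, NK cells, mast cells or erythroid cells was called; most of these lists had few tested members.

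Genes for the uptake of dead cells had 7 of 15 called higher and 1 lower, Scarb1. Gas6, the bridge between dying cells and the receptor Mertk, was at 1194 and 1258 CPM against 149, 305, 560, 569 and 156 CPM, with no overlap (1.80 ± 0.33, adjusted p = 0.000271, edgeR). Stab1, a scavenger receptor, was at 3309 and 4511 CPM against 387 to 1776 CPM (1.80 ± 0.36). Lrp1 was called higher (1.40 ± 0.44) but stood at -0.96 with library type as a term. Without IFN-gamma-deficient F1, 3 of the 8 remained called, and Lrp1 was at an adjusted p of 0.097 (edgeR).

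Of 16 complement genes 5 were called higher and 3 lower, the lower share being near the 19.5% of all tested genes. Setting apart the 6 members that followed library type or set left 3 of 10 called higher and 2 lower, with a median of 0.04. Cfb, a factor of the alternative pathway that IFN-gamma induces, was at 2.34 and 4.97 CPM against 7.09 to 72.7 CPM (-3.21 ± 0.78). Serping1, an inhibitor of the classical pathway, was at 159 and 183 CPM against 17.1 to 37.5 CPM (2.69 ± 0.53). Without IFN-gamma-deficient F1, 2 of the 8 remained called and the adjusted p of Cfb was 0.067 (edgeR); without F2, 5 did. Among receptors for T-cell cytokines, 4 of 19 were called higher and 7 lower. Il2rg, the common gamma chain, was at 35.6 and 47.4 CPM against 97.4 to 279 CPM (-2.15 ± 0.41, adjusted p = 0.00043, edgeR), and Il6st, the shared signalling chain of the interleukin-6 family, at 307 and 277 CPM against 93.0 to 124 CPM (1.53 ± 0.25, adjusted p = 9.59e-05, edgeR). Without IFN-gamma-deficient F1, 7 of these 11 remained called.

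Cholesterol synthesis had 6 of 18 called lower (median -0.77, and -0.02 against IL-17A/F). The cell cycle had 6 of 26 lower and 1 higher, iron and haemoglobin handling 4 of 14 higher and 5 lower, alternative activation 3 of 16 higher and 4 lower, and immediate-early genes 3 of 20 higher and 2 lower. Without IFN-gamma-deficient F1, 1 of the 6 cholesterol genes, 1 of the 7 cell-cycle genes, 2 of 9, 2 of 7 and 2 of 5 remained called in these lists in turn, and without F2 4, 5, 4, 2 and 3.

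**Figure D4:**
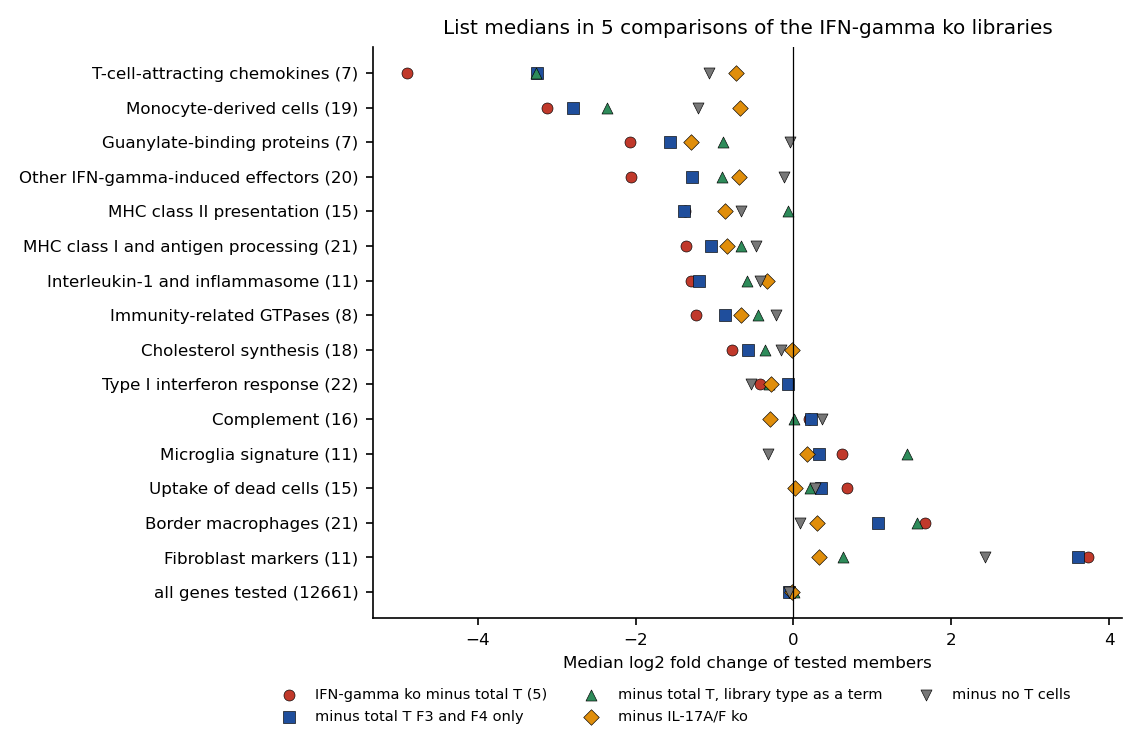
Median log2 fold change (horizontal axis) of the tested members of 15 gene lists and of all tested genes, with the number tested in brackets; each symbol is 1 of 5 comparisons of the IFN-gamma-deficient libraries. Of the lists drawn, T-cell-attracting chemokines have the lowest median against total T cells (-4.90) and fibroblast markers the highest (3.73). The medians against no T cells mostly lie nearer 0, at -0.05 for guanylate-binding proteins and 0.08 for border macrophages. Neutrophil markers, which are not drawn, had a median of -7.11 against total T cells. It was -5.33 with genes at 0 counts set against 3 counts over the group.

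Stromal genes were set apart, as 62 genes that are markers of fibroblasts, other dura stroma, bone, mural, endothelial or Schwann cells or that followed fibroblast markers in libraries outside the comparison. Of these, 35 were called higher and 4 lower. Of 11 tested fibroblast markers 10 were called higher, with a median of 3.73. Col6a1 (chr10:76708792-76726168, - strand), a matrix collagen, was at 222 and 276 CPM in the IFN-gamma-deficient libraries, at 17.3, 7.82, 15.7, 16.3 and 14.8 CPM in the total T-cell libraries, and at 159 and 256 CPM in the IL-17A/F libraries. It did not overlap between the first 2 groups (4.12 ± 0.59, adjusted p = 3.2e-05, edgeR). Pdgfra, the growth factor receptor of fibroblasts, was higher by a log2 fold change of 4.33 ± 0.66, Col6a2 by 3.92 ± 0.54, Lum by 3.81 ± 0.67 and Col5a1 by 3.81 ± 1.02. With library type as a term the fibroblast median was 0.63 and Col5a1 stood at -0.50; against the IL-17A/F libraries the median was 0.33.

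Outside the lists, the highest calls with a symbol and no overlap were Ttr, Fat4, Igsf10, Col11a1, Col6a5, Sned1, Lama2, Slc26a7, Sorcs2, Setbp1, Pappa and Lrp3, with log2 fold changes from 4.80 to 6.60. The rule for stromal genes did not set these apart, yet Col11a1 and Col6a5 encode collagens. The fibroblast sum was also higher in the IFN-gamma-deficient libraries. Whether stromal RNA accounts for these calls was not tested. Slc26a7, an anion exchanger, was at 60.9 and 67.7 CPM against 2.11, 1.13, 0.209, 3.64 and 1.88 CPM, and at 32.9 and 54.7 CPM in the IL-17A/F libraries (5.06 ± 0.57, adjusted p = 2.9e-06, edgeR). Ttr rests on IFN-gamma-deficient F1, with 21.2 CPM there and 0.799 CPM in F2, and was at an adjusted p of 0.58 without F1. Chrdl1 (chrX:143285674-143394262, - strand), an inhibitor of bone morphogenetic proteins, was singled out after its value was seen, since it was called with library type as a term too (2.98 ± 0.62, adjusted p = 0.0369, edgeR). It was at 70.1 and 48.5 CPM against 6.11, 4.51, 6.36, 5.93 and 3.17 CPM, and at 31.3 and 44.0 CPM in the IL-17A/F libraries.

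The lowest calls were of mixed kinds. Mmp8, a neutrophil collagenase, was at 0 counts in both IFN-gamma-deficient libraries and at 95.8, 29.8, 11.99, 10.3 and 7.63 CPM in total T-cell F1, F2, F3, F4 and M1, at least 192-fold lower. Htr7, a serotonin receptor, was at least 143-fold lower and Inpp5j, an inositol phosphatase, at least 114-fold lower, each with 0 counts in both IFN-gamma-deficient libraries. Ngp and Trem3 had 1 read each and were 492-fold (95% exact interval 88.2 to 19438) and 544-fold (97.5 to 21494) lower. Ly6i, with near-identical neighbours, was at 0.687 and 0 CPM against 10.9 to 687 CPM. The ribosomal genes Rps29, Rps27 and Rpl5 were low with them, and split the total T-cell group itself. Rps29 was at 468, 516 and 375 CPM in total T-cell F1, F2 and M1, at 1.04 and 2.46 CPM in F3 and F4, and at 0 and 0.444 CPM in the IFN-gamma-deficient libraries. Of these 12 lowest genes, Igkc among them, Mmp8 alone was called without IFN-gamma-deficient F1 (adjusted p = 0.047, edgeR).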

How the data were processed

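RNA of sorted dural macrophages was read with 75-nucleotide single-end, unstranded libraries, per the labels' protocols, so overlapping genes on opposite strands cannot be told apart. The authors deposited a table of read counts by gene, in whole numbers, with 27 columns. The table's name calls the values normalized, but every count from 1 to 20 occurs in each column and totals differ, so they were taken as unscaled. Tools and build named in the submitters' processing notes are STAR 2.4.0j, featureCounts, DESeq2 1.20.0 and GRCm38. How multiply matching reads were handled is not given in the labels or headers. Of 41388 identifiers, 40340 matched a GENCODE (release M21) symbol; the rest held 0.0859% to 0.121% of a library's counts.

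Genes were kept if their scaled counts averaged 10 or more in the whole series, and the 12661 kept were tested in 1 edgeR model (4.0.16, R 4.3.3, TMM scaling, group and sex as terms) with the quasi-likelihood test and Benjamini-Hochberg adjustment over all genes. CPM use the TMM-scaled total, except the ribosomal protein sums, which use the plain total of 337 genes. On simulated counts for 12661 genes and this comparison, 44% of genes changed by a log2 of 1 and 72% of those changed by 2 were recovered. Only 100 genes of each size were changed there, picked among genes with more counts, and no library-type difference was simulated. The shares therefore do not measure recovery in the data, nor calls that follow library type. Genes with 0 counts in a group were set against 3 counts over the group, which is 0.162 CPM here; intervals are 95% Clopper-Pearson and cover counting error only. The depths are given in the report; deeper libraries carry less counting error.

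Columns were matched to groups by name; they carry the sex but no replicate number of the titles, so libraries have running numbers. Whether libraries come from separate animals is not stated in the labels; the p-values reflect library-to-library spread alone, some of which may be technical. Pairs within the 2 groups differed by more than sampling noise (chi-square per degree of freedom of 39.9 for the IFN-gamma-deficient pair and 18.8 to 138 for total T-cell pairs).

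Members, gene lists and tests were chosen with earlier results of these data known. Named genes are up to 3 called genes with the largest change in each of the first 27 lists, 15 genes of the pathway always given, the 12 highest and 12 lowest called genes (at least 10 CPM in the higher group, no overlap, not stromal) and 5 stromal genes, 113 in all; genes named beside a list count or marked as chosen later are outside it. A few genes that the rule or lists take in are not reported here. Alternatives were DESeq2 (1.42.0) and its size factors, no filter, only the 7 libraries, females only, library type as a term, leaving out ribosomal and stromal genes, and each library left out in turn. Comparison with total T-cell F3 and F4 alone, the 3 library sets as a term (limits of 10000 and 20000 CPM) and setting apart genes that follow library type or set were added after seeing the data.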

Additional observations from a re-analysis of the deposited data

Results flagged for a closer look

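In the total T-cell group of 5 libraries, the level of 9 of the 113 named genes put 1 library far from the other 4, with a gap over the range above Dixon's critical value of 0.71. Chance flags about 1 in 20 groups. Library F1 was high for Il1r2 (61.3 CPM, the others 9.63 to 17.2), Chil3 (2466 CPM, the others 72.6 to 500), Mmp8 (95.8 CPM, the others 7.63 to 29.8), Trem3 (91.3 CPM, the others 6.35 to 19.0) and Ttr (0.475 CPM, the others 0 to 0.0847). Library F2 was high for Igkc (45.8 CPM, the others 0.272 to 4.30) and Sned1 (0.978 CPM, the others 0 to 0.204). It was low for the collagen gene Col6a1, at 7.82 CPM against 14.8 to 17.3 in the others. Library M1 was high for Lama2 (3.54 CPM, the others 0 to 0.931). The group of 2 IFN-gamma-deficient libraries is too small for this rule.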

How the results depend on the processing

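The count of 4661 called genes fell to 1941 with only the 7 libraries, to 2459 against total T-cell F3 and F4, to 35 with library type as a term and to 48 with the 3 library sets as a term. It ranged from 2047 (without IFN-gamma-deficient F1) to 4782 (without total T-cell F3) with each library left out in turn; the lone library of a group is then assumed to vary like the other groups. Of the 4661 genes, 1977 remained called without IFN-gamma-deficient F1, 3493 without F2, 2369 against F3 and F4 and 23 with library type as a term. Against IL-17A/F the 2 calls became 26 with DESeq2, 218 without a filter and 0 with only the 4 libraries, where 844 had an unadjusted p under 0.05. The 62 stromal genes became 112 at a correlation of at least 0.7. Directions turned for Upp1 (0.37 with library type as a term, 2.71 with the library sets), Cx3cl1 (-0.34 and -0.76), Lrp1 (-0.96 and -0.80), Jak1 (-0.10 and -0.10) and Col5a1 (-0.50 and -0.48). They also turned for Ciita (0.086) and Nos2 (3.64) with the library sets, Nos2 against F3 and F4 (0.69), Irf1 without total T-cell F3 (-0.0216; its highest was 0.24, without F1), Arg1 without IFN-gamma-deficient F1 (-11.18; its highest was 3.80, without total T-cell F1) and the MHC class II median with the library sets (0.0792); the cause was not tested. Of the 108 named genes that were called, 3 remained called with library type as a term, 4 with the library sets, 70 against F3 and F4, 67 without IFN-gamma-deficient F1, 85 without F2, 78 with only the 7 libraries and at least 102 without any single total T-cell library. The library type term rests on 1 library of another group. No paired analysis was possible because the columns do not show the replicate numbers that the titles give. The depth of IFN-gamma-deficient F1, 6902602 counts, limits what can be said of genes with few reads.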
